A study of Mus musculus with 7 samples.

Results

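The mouse genome holds 2 related clusters of forkhead genes: Foxq1, Foxf2 and Foxc1 on chromosome 13, and Foxf1, Foxc2 and Foxl1 on chromosome 8. The peaks described here are those whose midpoint lies from 31.5 to 33 Mb of chromosome 13 or from 123 to 124 Mb of chromosome 8 (mouse build mm9). In 3 peak lists these windows held 250 of 82921 peaks: 76 of 33915 for Shox2 in limb, 22 of 15091 for Shox2 in palate and 152 of 33915 for Pbx in limb. The 2 limb lists have exactly the same length, and whether a common cap set it is unknown. The windows were chosen from peak counts in these same lists, so counts, overlaps and list ratios are given as a description, with no test. The 3 forkhead genes of chromosome 13 lie at about 31.6 to 31.9 Mb, followed by Gmds, and those of chromosome 8 near 123.6 Mb. These are approximate positions, since no mm9 annotation was used here, and no peak can be called exonic, intronic or promoter-bound.

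The lists come from ChIP-seq (chromatin immunoprecipitation followed by sequencing) of freshly dissected tissue at E12.5 (the embryonic day). The labels give Shox2-HA, a tagged form of Shox2, for the limb and the palate libraries, both precipitated with anti-HA, and they give anti-Pbx for the other limb library. The sources used here do not give the number of tagged alleles, the strain, the genotype of the Pbx embryos or any pooling of embryos. There was 1 library per group, the lists hold positions without heights, and depth is unknown, so no count below has a replicate error. A further list, of co-occupied regions, has 8999 entries, and these are the limb Shox2 peaks that meet a limb Pbx peak by at least 1 bp. The 4 other libraries were not analysed here, the untagged anti-HA control and the input among them, so these windows have no measured background. Peak lists hold no expression, so the tissue labels could not be checked against markers.

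Forkhead (Fox) proteins are transcription factors that bind DNA through a winged-helix domain. The clusters are thought to descend from 1 ancestral group of genes: Foxf1 and Foxf2 are paralogs of each other, as are Foxc1 and Foxc2. Foxf1 and Foxf2 act in mesenchyme that receives hedgehog signals, and loss of Foxf2 causes cleft palate in mice. Foxc1 and Foxc2 are needed for skeletal, eye and vascular development, Foxl1 is known from the mesenchyme of the gut, and Foxq1 from the stomach lining and hair. Shox2 is a homeodomain factor of the proximal limb and the anterior palate. Pbx proteins are homeodomain factors of the TALE class, which often bind DNA beside other homeodomain proteins.

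In a RefSeq table of build GRCm38.p6 the protein-coding genes stand in the order Hus1b, Foxq1, Foxf2, Foxc1, Gmds, Mylk4, Wrnip1 on chromosome 13, and Irf8, Foxf1, Mthfsd, Foxc2, Foxl1, 1700018B08Rik on chromosome 8. RefSeq promoters (250 bases before to 50 after the gene start) were matched for 2 of the 6 forkhead genes, Foxf2 and Foxc1, and not for Foxq1, Foxf1, Foxc2 and Foxl1. They are shown as the starts of forkhead genes of the chromosome 13 window, with the start of Fendrr, a long noncoding RNA gene next to Foxf1, for chromosome 8. Coordinates are left out, since that build is not the build of the peaks. Foxf2 and Foxc1 are read on the plus strand of chromosome 13 and Fendrr on the minus strand of chromosome 8. Capitals mark TAAT, the core of many homeodomain sites, and TGATNNAT, a form of site described for Pbx with a partner, searched on both strands.
Foxf2: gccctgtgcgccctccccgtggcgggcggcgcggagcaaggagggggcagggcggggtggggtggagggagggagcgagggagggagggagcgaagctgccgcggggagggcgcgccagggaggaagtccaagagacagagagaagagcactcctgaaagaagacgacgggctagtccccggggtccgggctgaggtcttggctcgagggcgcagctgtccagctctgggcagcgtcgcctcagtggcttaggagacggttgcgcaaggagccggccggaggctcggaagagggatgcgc
Foxc1: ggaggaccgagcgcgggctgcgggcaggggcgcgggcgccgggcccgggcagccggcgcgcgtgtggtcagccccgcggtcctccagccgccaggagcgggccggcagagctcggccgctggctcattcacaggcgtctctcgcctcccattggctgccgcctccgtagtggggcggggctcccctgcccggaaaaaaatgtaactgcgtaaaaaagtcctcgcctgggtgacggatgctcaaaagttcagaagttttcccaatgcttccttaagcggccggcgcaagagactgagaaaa
Fendrr: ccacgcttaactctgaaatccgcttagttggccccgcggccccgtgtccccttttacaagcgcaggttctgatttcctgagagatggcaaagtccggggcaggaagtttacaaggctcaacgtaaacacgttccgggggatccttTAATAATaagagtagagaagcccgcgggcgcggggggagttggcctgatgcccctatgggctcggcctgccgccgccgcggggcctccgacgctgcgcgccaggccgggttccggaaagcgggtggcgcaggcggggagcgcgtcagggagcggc

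The letters of Foxf2 and Foxc1 held neither motif in these 300 bases. Fendrr held TAAT at 2 overlapping places and no TGATNNAT. Among all 32841 promoters of that length, 58% held TAAT and 8.85% held TGATNNAT. The 3 sequences are rich in G and C (71.3% in Foxf2, 67.3% in Foxc1 and 64.7% in Fendrr, against a median of 52.7% over all promoters), and letters rich in A and T are then rarer.

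The windows carried different mixtures of peaks. The Foxq1, Foxf2, Foxc1 window held 73 limb Shox2 peaks, 6 palate Shox2 positions and 70 limb Pbx peaks. The Foxf1, Foxc2, Foxl1 window held 3 limb Shox2 peaks, 16 palate positions and 82 limb Pbx peaks. Limb Shox2 peaks lay at 48.7 per Mb on chromosome 13 and at 3.0 per Mb on chromosome 8, a 16.2-fold difference in density. Palate Shox2 positions went the other way, with 4.0 per Mb on chromosome 13 and 16.0 per Mb on chromosome 8. Limb Pbx was dense in both, at 46.7 per Mb on chromosome 13 and 82.0 per Mb on chromosome 8. These are differences within single libraries, and their spread between embryos is unknown.

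**Figure D1:**
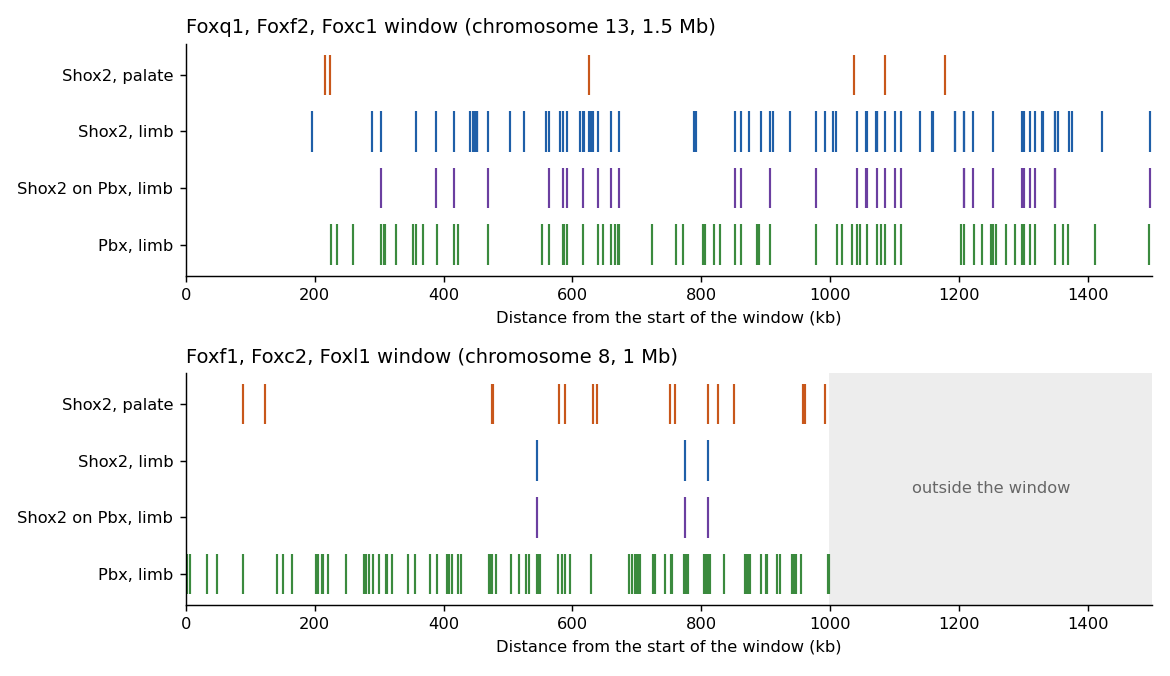
Peaks of each list in the 2 windows, drawn as vertical lines at their midpoints against the distance from the window's start in kb. In the chromosome 13 window limb Shox2 (73 peaks) starts at about 200 kb, is sparse up to about 400 kb and mostly denser beyond. It appears at 3 places in the chromosome 8 window. Limb Pbx runs through the chromosome 8 window and, after an empty first 224.2 kb, through the chromosome 13 window.

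Set against all windows of 1.5 Mb that start at multiples of 500 kb and hold a peak (5094 overlapping windows), the chromosome 13 window was high in both limb lists. The median window had 16 limb Shox2 peaks, and 0.883% of windows had 73 or more. For limb Pbx the median was 16, and 1.33% of windows had 70 or more. Its 33 co-occupied regions compare with a median of 4, and 0.432% of windows had as many. Its 6 palate positions were close to the median of 7.

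Among the 5027 windows of 1 Mb, the chromosome 8 window was near the top of the Pbx list and low in limb Shox2. Only 2 windows, itself and 1 on chromosome 2, had 82 or more limb Pbx peaks, where the median was 10. Its 3 limb Shox2 peaks lie below the median of 11, and 18.2% of windows had 3 or fewer. Its 16 palate positions lie above the median of 5, and 6.70% of windows had 16 or more. Of the 70 windows with at least 50 Pbx peaks, 13 (18.6%) had 3 or fewer limb Shox2 peaks, and the median of the 70 was 11.5. Windows overlap, and the 13 include the chromosome 8 window and the 1 Mb before it (65 Pbx and 3 limb Shox2 peaks). They also include the chromosome 2 window (88 and 3), so scarce limb Shox2 in a Pbx-rich window was not unique to chromosome 8. The median of palate positions in those 70 windows was 18.

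**Figure D2:**
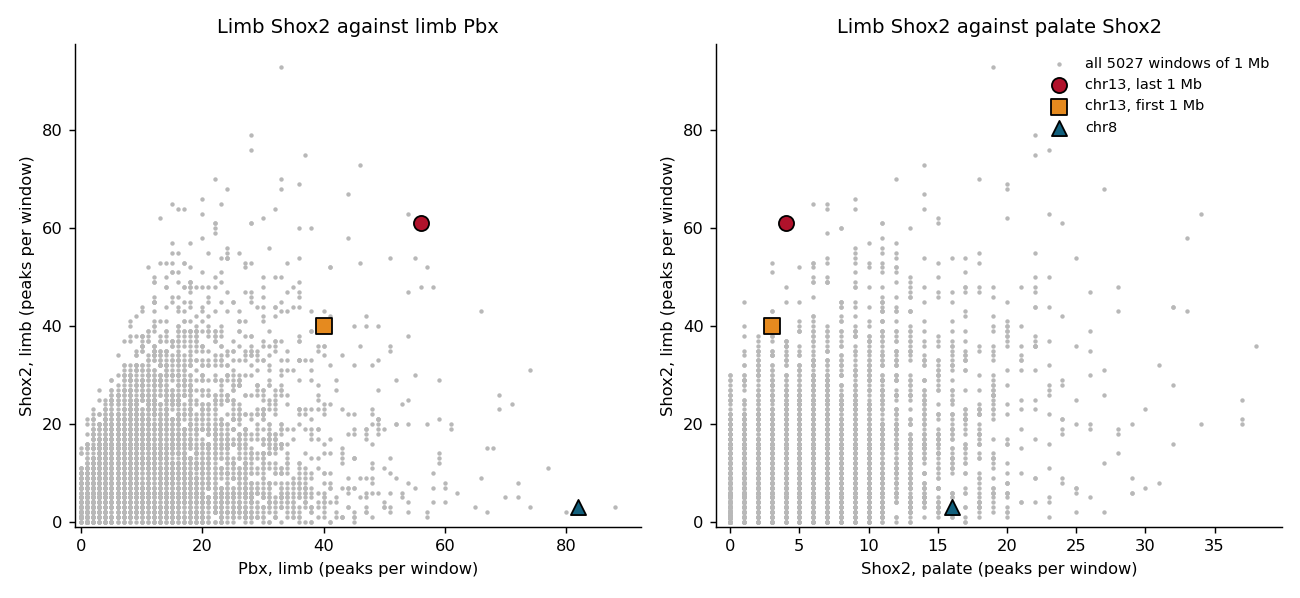
Each grey dot is 1 of 5027 overlapping windows of 1 Mb, with its limb Shox2 peaks on the vertical axis against its limb Pbx peaks (left) or palate Shox2 positions (right). The chromosome 13 windows (first 1 Mb, 40 limb Shox2 and 40 Pbx peaks, and last 1 Mb, 61 and 56) lie high in both limb lists, and the chromosome 8 window (3 and 82) lies at the foot of the plot.

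The 2 windows took unequal shares of the limb and palate lists. The chromosome 13 window took a 5.41-fold larger share of the limb Shox2 list than of the palate list (exact 95% interval 2.37 to 15.2, counting error only). That ratio was 6.79 in the last 1 Mb, 2.67 in the first 500 kb and 1.11 in the stretch of Foxq1, Foxf2 and Foxc1 itself (5 limb peaks and 2 palate positions). The ratio of 2.67 lies inside the interval of the whole window. The ratio of 1.11 rests on few peaks and was given no interval, so a lower limb excess at the forkhead genes is not shown. The chromosome 8 window took a 12-fold larger share of the palate list, a limb to palate ratio of 0.0834 (interval 0.0156 to 0.291). In the 2 bins beside 123.6 Mb the ratio was 0.111, from 1 limb peak and 4 palate positions. Of all limb and palate Shox2 peaks together, limb peaks make up 69.2%. They made up 15.8% (3 of 19) in the chromosome 8 window, and of the 2762 windows with 15 or more Shox2 peaks per Mb 1.41% were as low. In the last 1 Mb on chromosome 13 they made up 93.8%, and 7.20% of those windows were as high. The cutoffs of the lists are unknown and each tissue has 1 library, so tissue and library cannot be told apart.

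Within the chromosome 13 window the peaks thickened away from the forkhead genes. The first 100 kb, before Foxq1, held no peak of any list. The 300 kb from 31.6 to 31.9 Mb, where the genes Foxq1, Foxf2 and Foxc1 lie, held 5 limb Shox2 peaks (16.7 per Mb), 2 palate positions and 11 Pbx peaks. Of those, the stretch from 31.8 to 31.9 Mb held 3 limb Shox2 and 8 Pbx peaks. By stretches of 500 kb from the window's start, limb Shox2 rose from 12 to 28 and 33 peaks, and Pbx from 14 to 26 and 30. Most limb peaks thus lay beyond 32 Mb, past the 3 forkhead genes and toward Gmds, which encodes an enzyme of GDP-fucose synthesis, and Mylk4, a kinase gene.

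The fullest 100 kb bins for limb Shox2, with 9 peaks each, began at 32.1, 32.5 and 32.8 Mb. The fullest Pbx bin, with 12 peaks, ran from 32.7 to 32.8 Mb and also held 6 co-occupied sites, more than any other bin. Limb Shox2 was missing from 1 of 15 bins, Pbx from 2 and palate Shox2 from 11. The longest stretch without a limb Shox2 peak was the first 195.9 kb of the window, and without Pbx it was the first 224.2 kb. Palate positions left 410.2 kb empty between 32.13 and 32.54 Mb. Neighbouring limb Shox2 peaks stood a median of 12.6 kb apart, against 27.1 kb over the whole list, and Pbx peaks 10.7 kb apart, against 27.9 kb.

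In the chromosome 8 window Pbx also rose, from 35 peaks in the first 500 kb to 47 in the second, but it was spread over the whole window. All 10 bins of 100 kb held Pbx peaks, from 3 to 12 each, and the longest stretch without Pbx was 58.1 kb, from 123.63 to 123.69 Mb. The bins on both sides of 123.6 Mb, beside Foxf1, Foxc2 and Foxl1, held 16 Pbx peaks, 4 palate positions and 1 limb Shox2 peak. The first 500 kb, the side of Irf8 (a regulator of myeloid cells), held 35 Pbx peaks, 4 palate positions and 0 limb Shox2 peaks. The second 500 kb held 47 Pbx peaks, 12 palate positions and all 3 limb Shox2 peaks. The longest stretch without limb Shox2 was the first 545.1 kb. Pbx peaks stood a median of 7.2 kb apart.

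**Figure D3:**
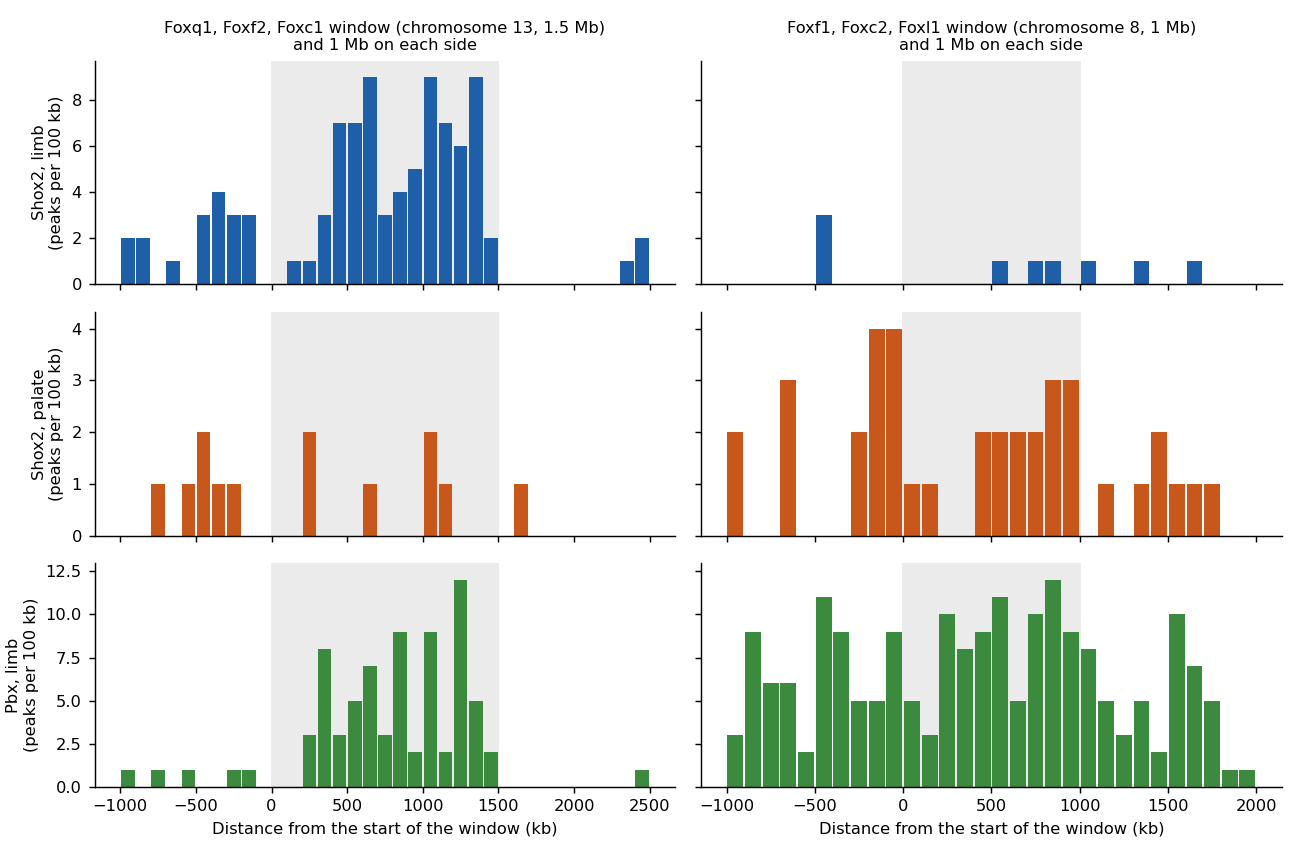
Peaks per bin of 100 kb in each window (grey) and 1 Mb to either side, by distance from the window's start in kb, with 1 row of panels per list. On chromosome 13 the limb lists drop to 3 Shox2 peaks and 1 Pbx peak in the 1 Mb after the window, while on chromosome 8 Pbx runs on through both flanks and limb Shox2 is scarce throughout.

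The surroundings of the clusters differed as well. On chromosome 13 the 1 Mb before the window held 18 limb Shox2, 6 palate and 5 Pbx peaks, and the 1 Mb after it held 3, 1 and 1. On chromosome 8 the 1 Mb before held 3 limb Shox2, 15 palate and 65 Pbx peaks, and the 1 Mb after held 3, 7 and 47. The dense stretch on chromosome 13 therefore ended at the far border of the window, whereas the mixture on chromosome 8 reached beyond it on both sides. At the far border of the chromosome 13 window the last limb Shox2 peak lay 4.6 kb inside and the next 854.6 kb outside, and for Pbx the distances were 4.7 and 913.5 kb. At its near border, limb Shox2 peaks lay 196.0 kb inside and 111.2 kb outside. On chromosome 8 the borders cut through the Pbx run, with peaks 1.1 kb inside and 4.4 kb outside at the start and 1.6 and 16.0 kb at the end. Limb Shox2 peaks there lay 545.3 kb inside and 411.5 kb outside at the start, and 189.3 and 16.0 kb at the end. Palate positions lay 215.9 kb inside and 241.5 kb outside at the start of the chromosome 13 window, and 89.2 and 20.6 kb at the start of the chromosome 8 window.

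Shox2 and Pbx met often on chromosome 13. Of its 73 limb Shox2 peaks 33 (45.2%, exact Clopper-Pearson 95% interval 33.5 to 57.3%) overlapped a Pbx peak, beside 26.5% of the whole limb Shox2 list. From the other side, 30 of 70 Pbx peaks (42.9%, interval 31.1 to 55.3%) overlapped limb Shox2, beside 23.4% of the whole Pbx list. The share of limb Shox2 peaks on Pbx was 33.3% (4 of 12) in the first 500 kb, 39.3% (11 of 28) in the second and 54.5% (18 of 33) in the third. Intervals cover counting error only and treat peaks as independent, which neighbours are not.

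On chromosome 8 the picture depended on the side it was seen from. All 3 limb Shox2 peaks lay on Pbx (interval 29.2 to 100%), which is too few for a rate. Only 3 of 82 Pbx peaks (3.66%, interval 0.761 to 10.3%) met limb Shox2, against 42.9% on chromosome 13, a difference of 39.2 percentage points. The window holds only 3 limb Shox2 peaks, each within 1 Pbx peak. The low share thus restates their number and is not separate information on overlap. The remaining 79 Pbx peaks of the chromosome 8 window had no limb Shox2 partner in the list, which does not show that Shox2 was absent from them.

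**Figure D4:**
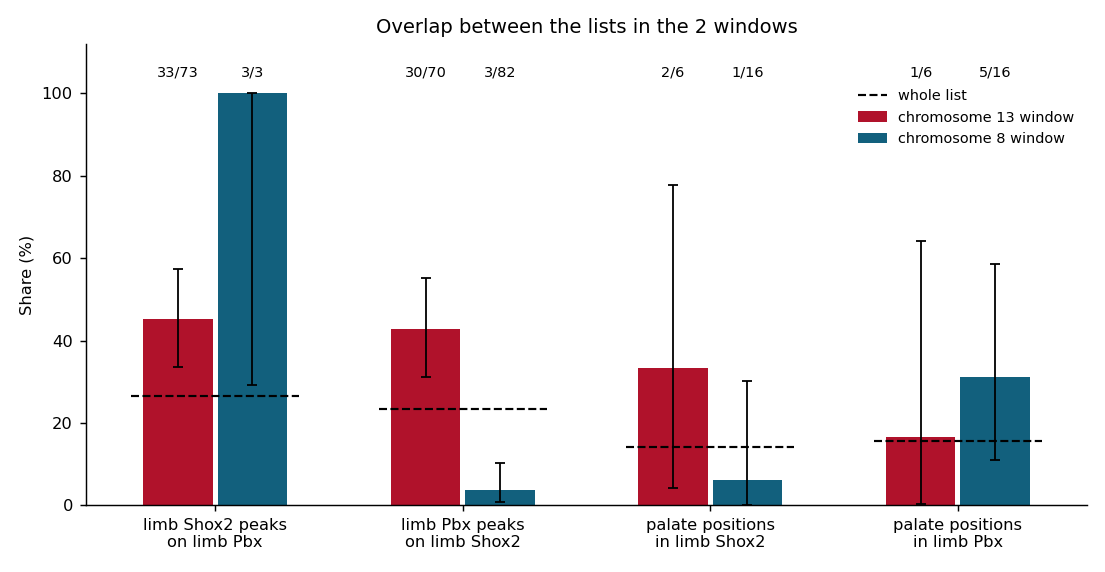
Share in percent of the peaks named on the horizontal axis that overlap the other list, for the chromosome 13 and chromosome 8 windows, with exact 95% intervals as error bars, the counts above and the whole-list share as a dashed line. The share of Pbx peaks on limb Shox2 is 42.9% on chromosome 13 and 3.66% on chromosome 8, on either side of the whole-list value of 23.4%. The chromosome 8 value is limited by the 3 limb Shox2 peaks of that window, and the other intervals are wide.

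The co-occupied sites of chromosome 13 ranged from 170 to 992 bp in width and stood from place 170 to place 32491 of the limb Shox2 file. The order of the files is a possible ranking, which they do not state. The widest was chr13:32609692-32610683 (992 bp, place 2494 of the Shox2 file), inside a Pbx peak of 2366 bp with centres 246 bp apart. Next came chr13:32584499-32585385 (887 bp), chr13:32062577-32063439 (863 bp), chr13:32707005-32707841 (837 bp) and chr13:32849105-32849776 (672 bp). The last of these stood at place 419. The earliest in the file, chr13:32600397-32600866, was at place 170 and its centre lay 6 bp from that of its Pbx peak. In the stretch of the forkhead genes the wider of the 2 sites was chr13:31802311-31802944 (634 bp, place 715), within a Pbx peak at place 998 of the Pbx file. It was the only site of that stretch in the first 10% of both limb files, and it was picked out after its values were seen.

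Over the 33 sites the centres of the Shox2 peak and its Pbx peak lay a median of 148 bp apart (1 to 791 bp), close to the 142 bp of all 8999 co-occupied regions. The Shox2 peak lay wholly within the Pbx peak at 29 sites (87.9%), against 87.5% of all such regions. Co-occupied Shox2 peaks had a median width of 329 bp and the 40 others 242 bp, against 326 and 245 bp over the whole list. In the first 10% of the Shox2 file stood 10 of the 33 co-occupied peaks (30.3%, against 21.1% of all co-occupied peaks) and 1 of the 40 others (2.50%, against 6.00%). In the first 50% of the file stood 17 of the 33 (51.5%), against 65.2% of all co-occupied peaks, so the 2 cuts differ from the whole list in opposite directions. The 1 other peak in the first 10% was chr13:32287911-32288313 at place 953. The median width, median centre distance and nesting of the sites were thus close to those of the whole list.

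The 3 Shox2 peaks of the chromosome 8 window were narrow and each lay wholly inside a broader Pbx peak. The first, chr8:123545145-123545389 (245 bp, place 5866 of the Shox2 file), is the one nearest to 123.6 Mb, and its centre lay 32 bp from that of a Pbx peak of 1357 bp. The second, chr8:123775118-123775340 (223 bp, place 11094), lay 212 bp from the centre of a Pbx peak of 1402 bp at place 1666 of the Pbx file. The last, chr8:123810565-123810782 (218 bp, place 30647), lay near the foot of the Shox2 file, 196 bp from the centre of a Pbx peak of 1821 bp at place 1222. None of the 3 was in the first 10% of the Shox2 file, although 2 of their Pbx partners were in the first 10% of the Pbx file.

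Pbx peaks were wider by median than the whole list in both clusters, and less so on chromosome 13. Their median width was 1000 bp on chromosome 13 and 1179 bp on chromosome 8, against 897 bp over the whole list. They covered 5% of the chromosome 13 window and 10.6% of the chromosome 8 window. In the first 10% of the Pbx file stood 9 of 70 (12.9%) on chromosome 13 and 17 of 82 (20.7%) on chromosome 8. The 79 Pbx peaks of chromosome 8 without Shox2 had a median width of 1141 bp and 15 (19.0%) in the first 10%, whereas the 40 without Shox2 on chromosome 13 had 824 bp and 2 (5%). Over the whole list, Pbx peaks without Shox2 had a median of 853 bp and 7.42% in the first 10%. The Pbx peaks without Shox2 in the whole chromosome 8 window thus stood at all places of the Pbx file, 15 of 79 of them in its first 10%.

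**Figure D5:**
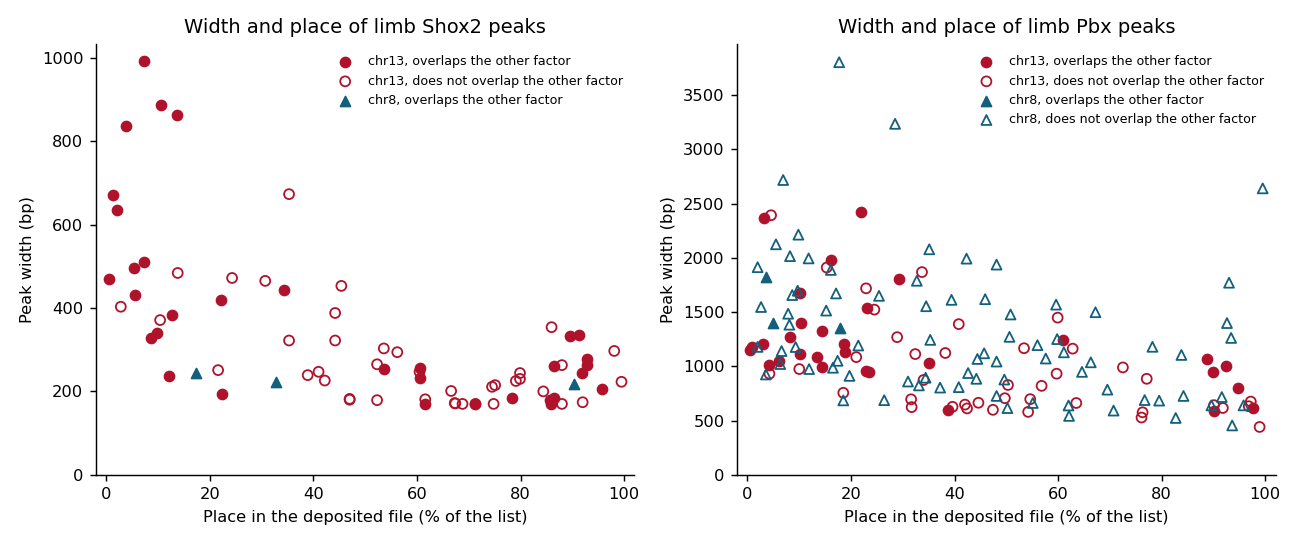
Width in bp against place in the deposited file, as a percentage of the list (0 is the top), for limb Shox2 peaks (left) and limb Pbx peaks (right) of the 2 windows, with filled symbols for peaks that overlap the other factor. The chromosome 13 Shox2 peaks of 837 to 992 bp are filled and stand in the first 13.7% of the list. The next widest, of 673 bp, is open and stands at 35.3%. Open chromosome 8 Pbx symbols occur at all places.

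Palate Shox2 gave the 6 positions of chromosome 13 and the 16 of chromosome 8. On chromosome 13, 2 of 6 lay in a limb Shox2 peak (33.3%, exact interval 4.33 to 77.7%), beside 14.2% of the whole palate list, and 1 of 6 lay in a limb Pbx peak (16.7%, interval 0.421 to 64.1%), beside 15.6%. On chromosome 8, 1 of 16 lay in a limb Shox2 peak (6.25%, interval 0.158 to 30.2%) and 5 of 16 in a limb Pbx peak (31.2%, interval 11.0 to 58.7%). All 4 intervals contain the whole-list share, but with 6 and 16 positions they are too wide to show likeness to it. Among limb Shox2 peaks, 2 of 73 on chromosome 13 (2.74%) and 1 of 3 on chromosome 8 held a palate position, beside 6.28% of the limb list. Among limb Pbx peaks, 1 of 70 (1.43%) and 5 of 82 (6.10%) did, beside 6.62% of the Pbx list.

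The 2 palate positions within the 31.6 to 31.9 Mb stretch lay close together, at chr13:31715933 and chr13:31724452. The second, at place 1841 of the palate file, was inside the Pbx peak chr13:31724234-31724989 and 28.31 kb from the nearest limb Shox2 peak. At chr13:32126186 a palate position fell in a limb Shox2 peak that had no Pbx partner. At chr13:32585358 a palate position fell in the second widest co-occupied Shox2 peak, but 9 bp beyond the edge of its Pbx peak. The chromosome 13 window therefore held 1 limb Shox2 peak that met both other lists, and no single base in all 3.

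On chromosome 8 most palate positions lay closer to a Pbx peak than to a limb Shox2 peak. They stood a median of 49.0 kb from the nearest limb Shox2 peak and 2.96 kb from the nearest Pbx peak. Within 5 kb of a Pbx peak lay 11 of 16, a share not computed over the whole palate list. The chromosome 13 positions leaned the same way, with medians of 10.6 kb to limb Shox2 and 4.79 kb to Pbx. There 3 of 6 lay within 5 kb of a Pbx peak, so the closeness to Pbx was not particular to chromosome 8. The chromosome 8 window holds 82 Pbx peaks, a median of 7.2 kb apart, and 3 limb Shox2 peaks. Its distances therefore cannot be told apart from peak density. The highest in the palate file, at place 151, was chr8:123474698, inside a Pbx peak of 1051 bp and 70.45 kb from limb Shox2. Next was chr8:123751907, at place 159, inside a Pbx peak of 2641 bp that stood near the end of the Pbx file (place 33755). Positions chr8:123089204 and chr8:123588320 also lay in Pbx peaks, at places 8316 and 13335. At chr8:123810671 a palate position, at place 4995, lay in a limb Shox2 peak and a Pbx peak at once, the only base of either window in all 3 lists. The 2 bins beside 123.6 Mb, where the forkhead genes lie, held 4 palate positions. Besides chr8:123588320 they were chr8:123578921, chr8:123632520 and chr8:123637349, which lay outside Pbx peaks by 1.74, 3.45 and 8.28 kb.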

How the data were processed

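Bowtie, MACS2 and the build mm9 are named, with no role or version, per the submitters' processing notes. Settings and list cutoffs are not stated there. The deposited lists hold a chromosome, a start and an end per peak, and every palate entry is 1 bp wide. Peaks were assigned to a window by midpoint, positions are printed 1-based, and lists overlapped at 1 bp or more at their deposited extents. Windows of 1 and 1.5 Mb were counted over all chromosomes, unplaced sequences left out. Bins of 100 kb were counted only in the 2 forkhead windows and 1 Mb to either side, so they have no genome-wide background. Shares have exact Clopper-Pearson intervals at 95%. No p-value was computed, since each group has 1 library and the windows were picked with results of these data known; the members, lists and named peaks were chosen with earlier results in view. Named peaks were the 5 widest co-occupied peaks of each window, palate positions inside a limb peak, the fullest bins and the longest gaps. Other named peaks and positions fall outside this choice, and only some of them are marked as picked after their values were seen. The overlap code was tested on lists with planted partners. Python 3.11.15, NumPy 2.4.6, pandas 2.3.3, SciPy 1.17.1 and matplotlib 3.10.9 were used. Alternatives changed the window, list length, peak extent and overlap.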

Additional observations from a re-analysis of the deposited data

How the results depend on the processing

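Over 9 alternatives, 103 values were recomputed, 83 stayed within their interval (shares and ratios) or within 1.5 times the reported value (densities), and 20 moved. The wide intervals of small counts make staying inside them a weak statement. Some of the values could not change. Palate densities were counted also where only the limb lists were cut. Palate shares kept the overlap of 1 bp in the setting that asked for 50% of the Shox2 peak. The difference between the clusters in limb Shox2 peaks on Pbx, 35.2 to 66.7 points, rests on 3 peaks on chromosome 8, nearly all counted as overlapping by each setting, and says nothing about stability. In the first 500 kb on chromosome 13, limb Shox2 fell to 24.0 and Pbx to 28 per Mb, Shox2 peaks on Pbx to 33.3%, Pbx peaks on Shox2 to 28.6% and palate positions in limb Shox2 to 0%, with a difference of 66.7 points to chromosome 8 in Shox2 peaks on Pbx and a limb to palate ratio of 2.67. There 50% of palate positions lay in Pbx, so both palate shares changed their order against chromosome 8 (6.25% in limb Shox2, 31.2% in Pbx), with 2 positions left. The last 1 Mb left 0% of palate positions in Pbx. The second 500 kb on chromosome 8 gave 6.0 limb Shox2 peaks per Mb. With both limb lists cut to the length of the palate list, chromosome 13 had 20.0 limb Shox2 and 28 Pbx peaks per Mb, and chromosome 8 had 46.0 Pbx peaks per Mb and 0% of palate positions in limb Shox2. The widest 50% of each limb list gave 24.0 and 28.7 per Mb and 0% of palate positions in Pbx on chromosome 13. On chromosome 8 it left 0 limb Shox2 peaks, hence 0% of Pbx peaks and 0% of palate positions on Shox2, a limb to palate ratio of 0 and no share on Pbx. Shorter lists lower densities by construction. With every peak at 200 bp, 31.5% of chromosome 13 Shox2 peaks lay on Pbx. Whole-list shares were not recomputed under any alternative, so this and the other recomputed shares have no matching background. No paired analysis was possible because there is only 1 library of each kind, which also prevented leaving one out. With depth unknown, a missing peak cannot be told from one below a cutoff.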

Other observations

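The other window of 1 Mb with at least as many limb Pbx peaks as the Foxf1, Foxc2, Foxl1 window ran from 165.5 to 166.5 Mb of chromosome 2. It held 88 limb Pbx peaks, 3 limb Shox2 peaks, 19 palate Shox2 positions and 2 co-occupied regions, against 82, 3, 16 and 3 on chromosome 8. It was picked out after its values were seen, and no test was made of the likeness.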
